A study of Mus musculus with 18 samples.

Results

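The cytosolic ribosomal protein genes were examined in GFP+ cardiac fibroblasts from neonatal mouse hearts, at the ages before and after the heart loses its capacity to regenerate. Genes were taken by symbol: Rpl or Rps with a number and at most 1 letter out of a, x and l, and also Rplp0, Rplp1, Rplp2 and Rpsa. Of 83 symbols in the table that match, 82 had at least 1 count over the 18 libraries, out of 28906 symbols with a count and 55453 in all. Among the 82 genes, 50 are named for the large subunit and 32 for the small subunit. Rpl10l, a testis paralog of Rpl10, had no count and was left out. The pattern misses a few ribosomal protein genes with other names, such as Rps3a1 and Fau, which were followed separately. GENCODE lists Rpl32l and Rpl6l as processed pseudogenes and Rps4l as a transcribed processed pseudogene.

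All groups were Tcf21-MerCreMer/+; Rosa-mTmG/+ pups on C57BL/6J that received tamoxifen at P1, which switches the reporter to GFP in cells of the Tcf21 lineage, the resident fibroblasts. Baseline groups were un-operated pups at P2 and P10, and the others were operated on at P2 or P10, either with a sham procedure or with resection of the apex, and hearts were collected 3 days later, at P5 or P13. Each of the 6 groups had 3 libraries. Sham and baseline pups therefore differ in age by 3 days as well as in surgery, and hearts of older pups were digested for longer, so age and digestion cannot be told apart. The GFP marks cells whose ancestors used the Tcf21 promoter, which need not all be fibroblasts, and neither the sex of the pups nor the number per library is given. Where replicates are not separate animals, p-values measure only the spread between these libraries. All 8 fibroblast markers examined had counts in every group, at a summed level per library of 44464 to 103850 CPM, counts scaled to library size. The summed level of 12 cardiomyocyte markers was 179 to 1616 CPM.

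A cytosolic ribosome joins a small subunit, which reads the mRNA, to a large subunit, which forms the peptide bonds, and each holds ribosomal RNA and proteins present in about equal copy number. Their mRNAs usually start with a run of pyrimidines, the 5′ terminal oligopyrimidine (TOP) tract, through which mTOR signalling and the RNA-binding protein LARP1 set their translation and stability together. Demand for ribosomes is known to be high in dividing and growing cells. In bulk RNA, fewer molecules per cell and fewer cells of a type cannot be told apart.

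Promoter windows of 4 genes are shown because the results below turn on them: Rps24 and Rpl23 were lower at the later ages, Rpl38 had a similar fold with a wider error, and Rplp0 differed least. Each window runs from 30 bases before to 19 bases after the start base in RefSeq (GRCm38.p6), written 5′ to 3′ on the gene's own strand. Where RefSeq has several starts, the start nearest that of the GENCODE mRNA was used. Capitals mark the longest run of C and T of at least 6 bases that begins with C.
Rps24, chr14:24490723-24490772, plus strand: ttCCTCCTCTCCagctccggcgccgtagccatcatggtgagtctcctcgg
Rpl23, chr11:97782420-97782469, minus strand: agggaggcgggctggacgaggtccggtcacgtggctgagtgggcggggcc
Rpl38, chr11:114668550-114668599, plus strand: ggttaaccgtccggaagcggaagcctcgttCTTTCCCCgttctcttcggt
Rplp0, chr5:115559437-115559486, plus strand: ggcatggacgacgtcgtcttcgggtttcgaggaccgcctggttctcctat
The tract of Rpl38 begins exactly at the start base, and that of Rps24 lies 28 bases before it, while the windows of Rpl23 and Rplp0 hold none. The GENCODE mRNA of Rps24 begins 35 bases before the RefSeq start used here, so its tract is inside that mRNA.

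RefSeq promoters were at hand for 60 of the 82 genes, with 72 starts among them, and 46 of the 60 genes had such a tract within 30 bases of a start. The tract was in 51 of the 72 promoters, or 70.8%, compared with 40.0% of all 32851 promoters. On either strand of the promoters, from 250 bases before to 50 after the start, the ETS-like motif CCGGAAGT was in 16.7% compared with 3.89% of all, the YY1-like motif AAGATGGC in 9.72% compared with 2.75%, and the GC box GGGCGG in 56.9% compared with 35.7%. A TATAAA between 50 and 10 bases before the start was in none of the 72, compared with 2.40% of all. A match is only a run of letters, not a bound site.

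The 82 genes took between 0.750% and 2.77% of all counts on genes, of 10462737 to 22980554 counts per library. At P2 baseline the shares of the replicates were 1.22%, 1.20% and 1.62%, at P2 sham +3 days 1.13%, 2.77% and 1.48%, and at P2 resected +3 days 1.14%, 1.31% and 1.50%. At P10 baseline they were 0.857%, 1.03% and 1.09%, at P10 sham +3 days 0.750%, 1.24% and 1.26%, and at P10 resected +3 days 1.30%, 1.25% and 1.10%. The P2 and P10 baseline libraries did not overlap, those of the resected groups did, and a single sham library lay above all others. The mean was 1.49% ± 0.513 (SD, n = 9) over the P2 groups and 1.10% ± 0.192 (SD, n = 9) over the P10 groups. Without replicate 2 of P2 sham +3 days, the P2 mean was 1.32% ± 0.185 (SD, n = 8).

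**Figure D1:**
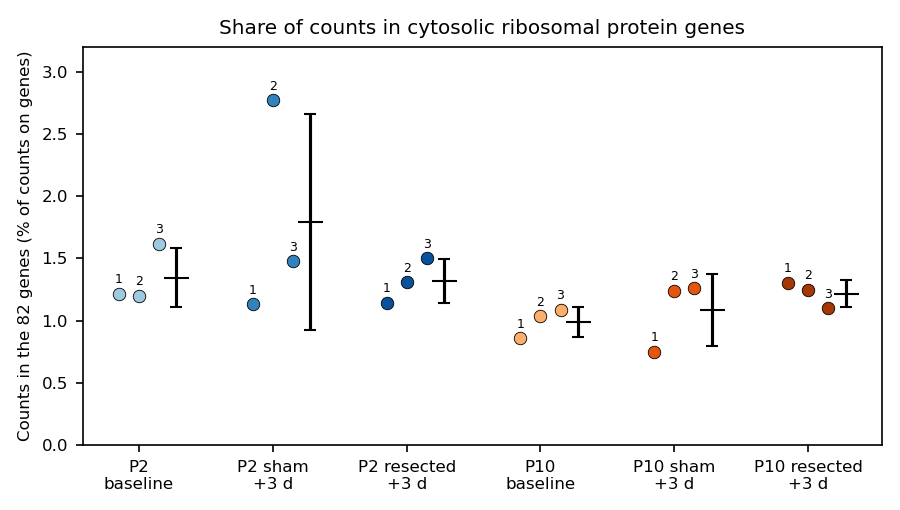
Percent of counts on genes that fell in the 82 ribosomal protein genes, by group; each point is a library labelled with its replicate number, and the bar with whiskers is the group mean ± SD (n = 3). Replicate 2 of P2 sham +3 days, at 2.77%, lies above all other libraries, which span 0.750% to 1.62%.

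That library stood apart in nearly the whole family. Of the 80 genes with enough counts to be tested, 76 had their highest CPM in it, or 95.0%, compared with 10.3% of all genes tested. The median ratio of its CPM to the median of the other 17 libraries was 2.31 for the 80 genes and 0.945 for all genes tested. Rpl39, a short protein at the exit of the peptide tunnel, was at 173.8 CPM in it and at 66.4 CPM or less elsewhere. Rplp0, the base of the P-stalk that recruits elongation factors, was at 952 CPM in it, and its ratio of 1.40 was among the smallest. The library also had the largest mitochondrial share, 1.07%, though close to the 1.05% of replicate 3 of P10 resected +3 days. Replicate 2 of P2 sham +3 days had the largest share of counts in short protein-coding genes outside the family. That share was 18.6%, compared with 9.47% to 14.9% in the other 17 libraries. Short here means an mRNA of at most 1343 bases, the 90th percentile of the family, which 5700 genes meet. Relative to the short genes the family stood at a ratio of 0.149 in this library, and at 0.0930 to 0.130 in the other P2 libraries and 0.0735 to 0.104 in the P10 libraries. The part of these shares in the high values was not tested. Values of the family without this library are given below for each comparison it takes part in.

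**Figure D2:**
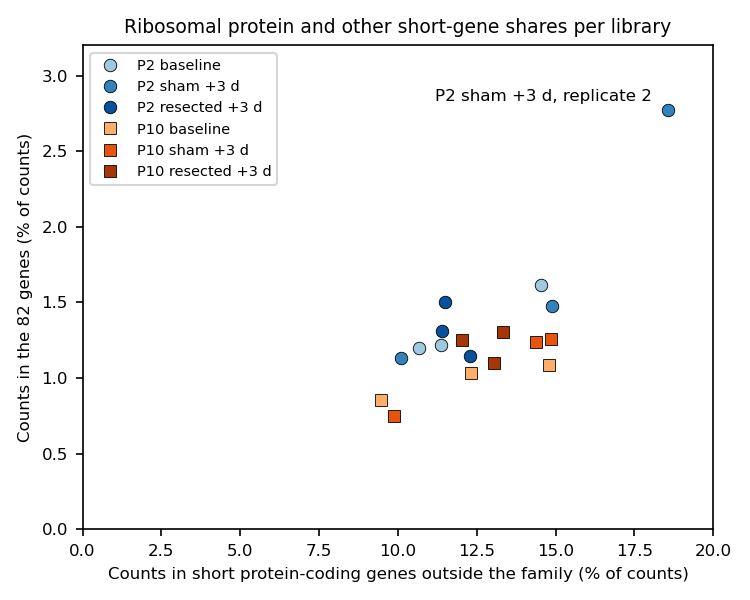
Percent of counts in the 82 ribosomal protein genes (y axis) against percent of counts in 5700 other short protein-coding genes (x axis), 1 point per library, circles for P2 and squares for P10 groups. Replicate 2 of P2 sham +3 days is highest on both axes, at 18.6% and 2.77%.

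The family varied largely as a block between libraries. Among the 78 genes with a count in every library, 72.8% of the variance of log2 CPM around each gene's mean lay on a single component, compared with 28.8% for the 11620 tested genes that had a count in every library. Without the high sham library these shares were 55.4% and 31.1%. Replicate 1 of P10 sham +3 days was the lowest library for 59 of the 80 genes. The split between subunits hardly moved, as small-subunit genes took 40.3% to 44.1% of the family's counts in every library. The median coefficient of variation over the 18 libraries was 35.7% for the 80 genes and 45.2% for all genes tested, and for the 80 genes it was 21.3% without the high sham library.

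**Figure D3:**
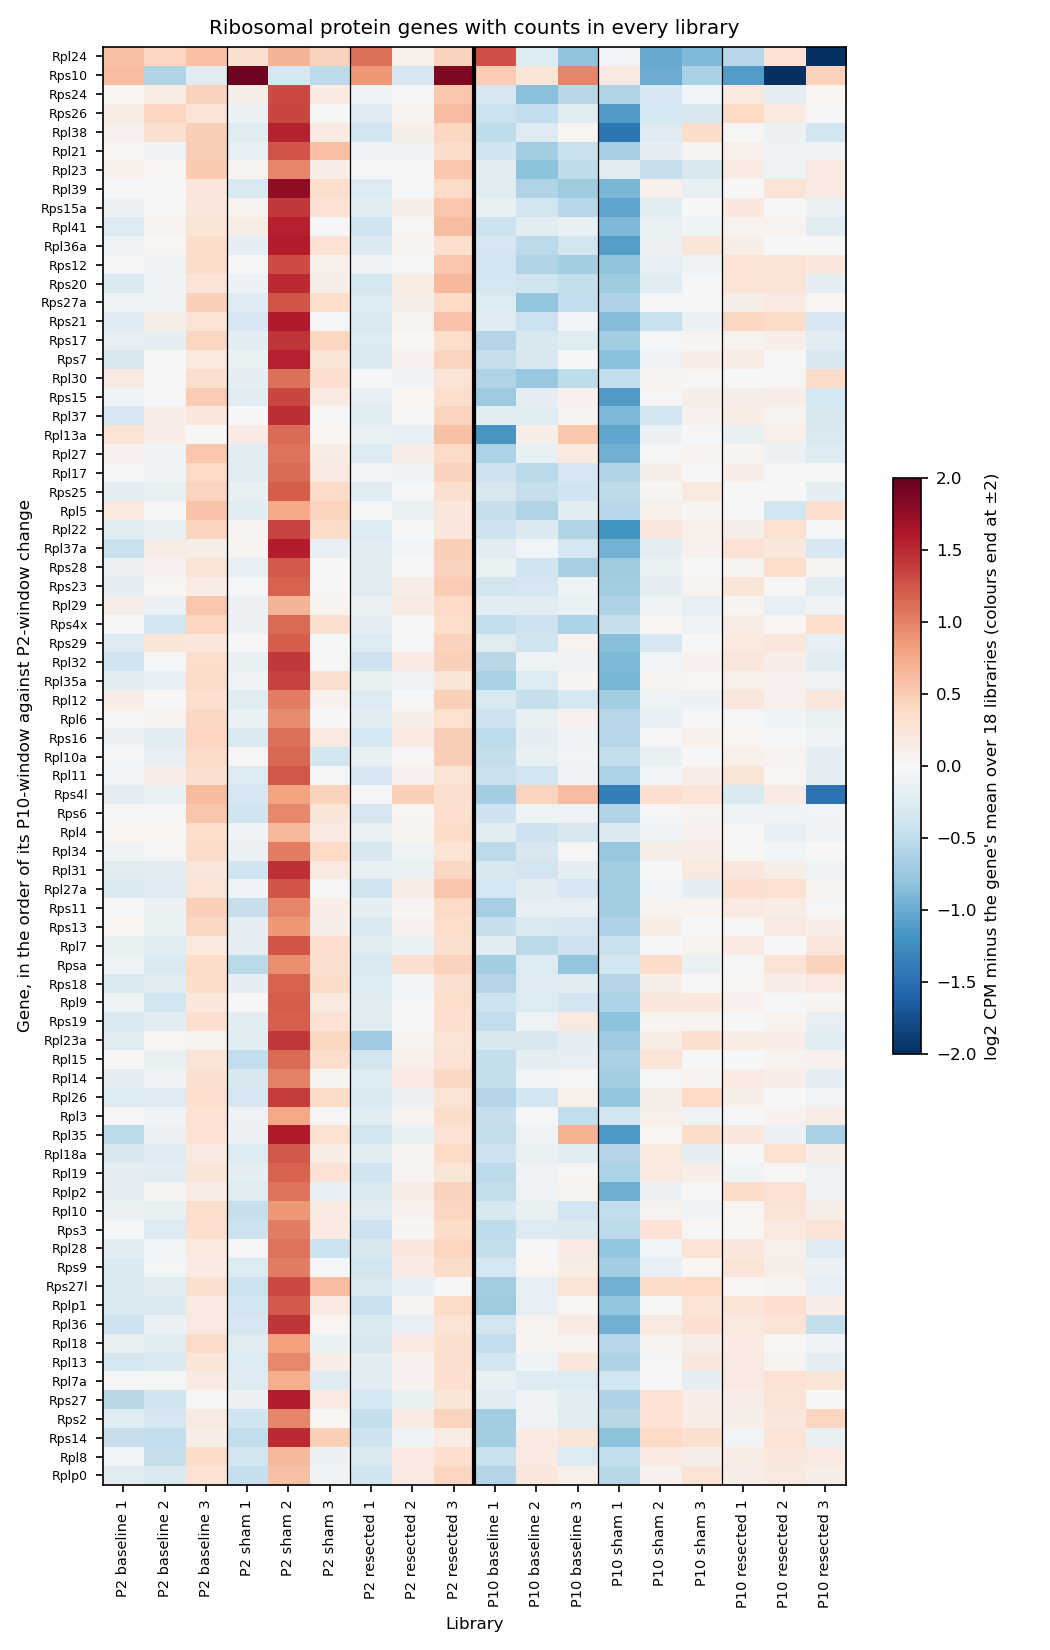
Log2 CPM minus the gene's mean over the 18 libraries, for 76 of the 78 genes with a count in every library (rows, ordered by their change between age windows) and the libraries (columns). The column of replicate 2 of P2 sham +3 days is red in nearly every row, and that of replicate 1 of P10 sham +3 days is mostly blue.

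Levels were compared between genes per kilobase of mRNA, averaged over the 18 libraries. The highest was Rps14, a protein of the platform of the small subunit, at 750.9 ± 350.4 CPM per kb (SD, n = 18). Rpl32 followed at 553.8 ± 235.4 (SD, n = 18), Rpl13 at 505.6 ± 138.7, Rpl4 at 482.9 ± 96.3 and Rplp0 at 477.4 ± 109.1. Each differed from the next in this order by less than its SD. Without the high sham library the same 5 genes led in the same order, with Rps14 at 679.3 ± 179.7 and Rplp0 at 464.2 ± 96.6 CPM per kb (SD, n = 17). The lowest 3 were Rpl32l at 0.388, Rpl3l at 0.134 and Rpl6l at 0.00405 CPM per kb, and Rpl6l rests on 1 count. The spread between genes does not give protein ratios, because reads that match several places or several genes were dropped. Rps10 had 601 counts and 91.6% of its mRNA lies under exons of another gene record, and Rpl24 had 203 counts with 71.5% covered. For Rps27, 98.5% of the 75-base stretches of its mRNA also occur in transcripts of other genes, for Rpl4 8.47%, and for Rps3 none. These counts are therefore lower bounds for genes with copies.

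To ask how the family changed with age, the 3 P10 groups were compared with the 3 P2 groups. Only Rps24, Rpl23 and Rpl21 were called lower at P10, at an adjusted p under 0.05 in edgeR, and none was called higher. That is 3 of 80 genes or 3.75%, compared with 13.5% of all 16170 genes tested and 6.39% called lower. Still, 78 of the 80 log2 fold changes were below 0, with a median of -0.35 and quartiles of -0.42 and -0.26, beside a median of -0.06 for all genes, of which 54.2% were below 0. The only values above 0 were those of Rpl3l and Rpl39l, the thinly expressed paralogs. Rpl3l passed the filter on low counts only through its P10 resected libraries, so its sign draws on the libraries that admitted it. With p not adjusted, 25 genes were under 0.05, or 31.3%, compared with 28.3% of all genes. DESeq2 called 7, with a background of 19.2%. In no gene were all 9 P10 libraries below or above all 9 P2 libraries, compared with 2.51% of all genes. Without replicate 2 of P2 sham +3 days, edgeR called 2 (Rps24 and Rpl23), or 2.5%, compared with 13.2% of all genes tested in that fit, 70 genes were below 0, and the median was -0.17.

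Rps24, a small-subunit protein whose loss causes Diamond-Blackfan anaemia in humans, had a lowest, median and highest CPM of 112.6, 131.5 and 295.8 in the P2 groups. In the P10 groups these were 66.8, 94.3 and 136.2, so the groups overlapped. Its log2 fold change was -0.63 ± 0.17 (SE) with an adjusted p of 0.0205 in edgeR. Rpl23, which holds MDM2 and thereby links ribosome stress to p53, was at 98.9, 106.3 and 195.0 CPM in the P2 groups and at 56.3, 84.0 and 112.0 CPM in the P10 groups. Its log2 fold change was -0.54 ± 0.15 (SE) with an adjusted p of 0.0227 in edgeR. Rpl21 of the large subunit was at 120.8, 138.7 and 323.7 CPM in the P2 groups and at 83.9, 120.4 and 146.3 CPM in the P10 groups, with a log2 fold change of -0.56 ± 0.17 (SE) and an adjusted p of 0.0354 in edgeR. Without the high sham library the log2 fold changes were -0.45 for Rps24, -0.41 for Rpl23 and -0.41 for Rpl21, which was then no longer called (adjusted p of 0.0726 in edgeR). Over the 18 fits that each left out 1 library, Rps24 was called in 17, Rpl23 in 14 and Rpl21 in only 5. For all 3 genes the highest library was the high sham library, and the P10 resected libraries were among the higher P10 values.

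The calls depended on single libraries. Leaving out replicate 3 of P2 resected +3 days left none called, compared with 9.76% of all genes, with adjusted p of 0.0542 for Rps24. A single gene, Rps24, remained without replicate 3 of P2 baseline, replicate 2 of P10 baseline or replicate 2 of P10 resected +3 days, where 11.1%, 9.9% and 9.9% of all genes were called. Without replicate 1 of P2 sham +3 days, 16 genes were called, including the 3, or 20% of the 80 genes, compared with 13.1% of all genes tested in that fit.

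The P-stalk proteins, which bind the elongation factors, lay above the upper quartile of the changes. Rplp0 had a lowest, median and highest CPM of 460.9, 602.1 and 952.2 at P2 and 419.3, 685.6 and 762.7 at P10, with a log2 fold change of -0.03 ± 0.17 (SE) that turned positive under upper-quartile scaling, without the filter on low counts, in voom, and without any 1 of 5 libraries, among them the high sham library (0.10). Rplp1 turned positive, at 0.0285, only without that library among the settings run. The log2 fold changes of Rplp1 and Rplp2 were -0.18 ± 0.20 and -0.25 ± 0.19 (SE). Rpsa, also known as the laminin receptor, had -0.30 ± 0.19 (SE). Without the high sham library Rplp2 was at -0.0491 and Rpsa at -0.15. None of the 4 passed the test, with adjusted p from 0.314 to 0.962 in edgeR.

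Other members with known roles outside or in control of the ribosome did not pass the test either. Rps6, the target of S6 kinase, had a log2 fold change of -0.34 ± 0.17 (SE). Rpl5 and Rpl11, which with 5S rRNA restrain MDM2, had -0.40 ± 0.16 and -0.35 ± 0.19 (SE). For Rps19, the gene most often mutated in Diamond-Blackfan anaemia, the value was -0.29 ± 0.19, and for Rpl22, a protein that binds RNA and is not essential for the ribosome, -0.40 ± 0.20. Rpl38 and Rpl10a, studied as ribosome components that favour subsets of mRNAs, had -0.58 ± 0.25 and -0.35 ± 0.18. Rpl13a, a part of the GAIT complex, had -0.42 ± 0.26 on 3507 counts. Rps27a, made as a fusion with ubiquitin, had -0.47 ± 0.18, and Rpl41, the smallest ribosomal protein, had -0.51 ± 0.21. Their adjusted p ranged from 0.101 to 0.335 in edgeR. Leaving out the high sham library brought these values closer to 0. Rps6 was then at -0.19, Rpl5 at -0.31, Rpl11 at -0.13, Rps19 at -0.12 and Rpl22 at -0.23. Rpl38 was at -0.32, Rpl10a at -0.14, Rpl13a at -0.26, Rps27a at -0.28 and Rpl41 at -0.27. All but Rpl5 moved by over 1.5 times.

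**Figure D4:**
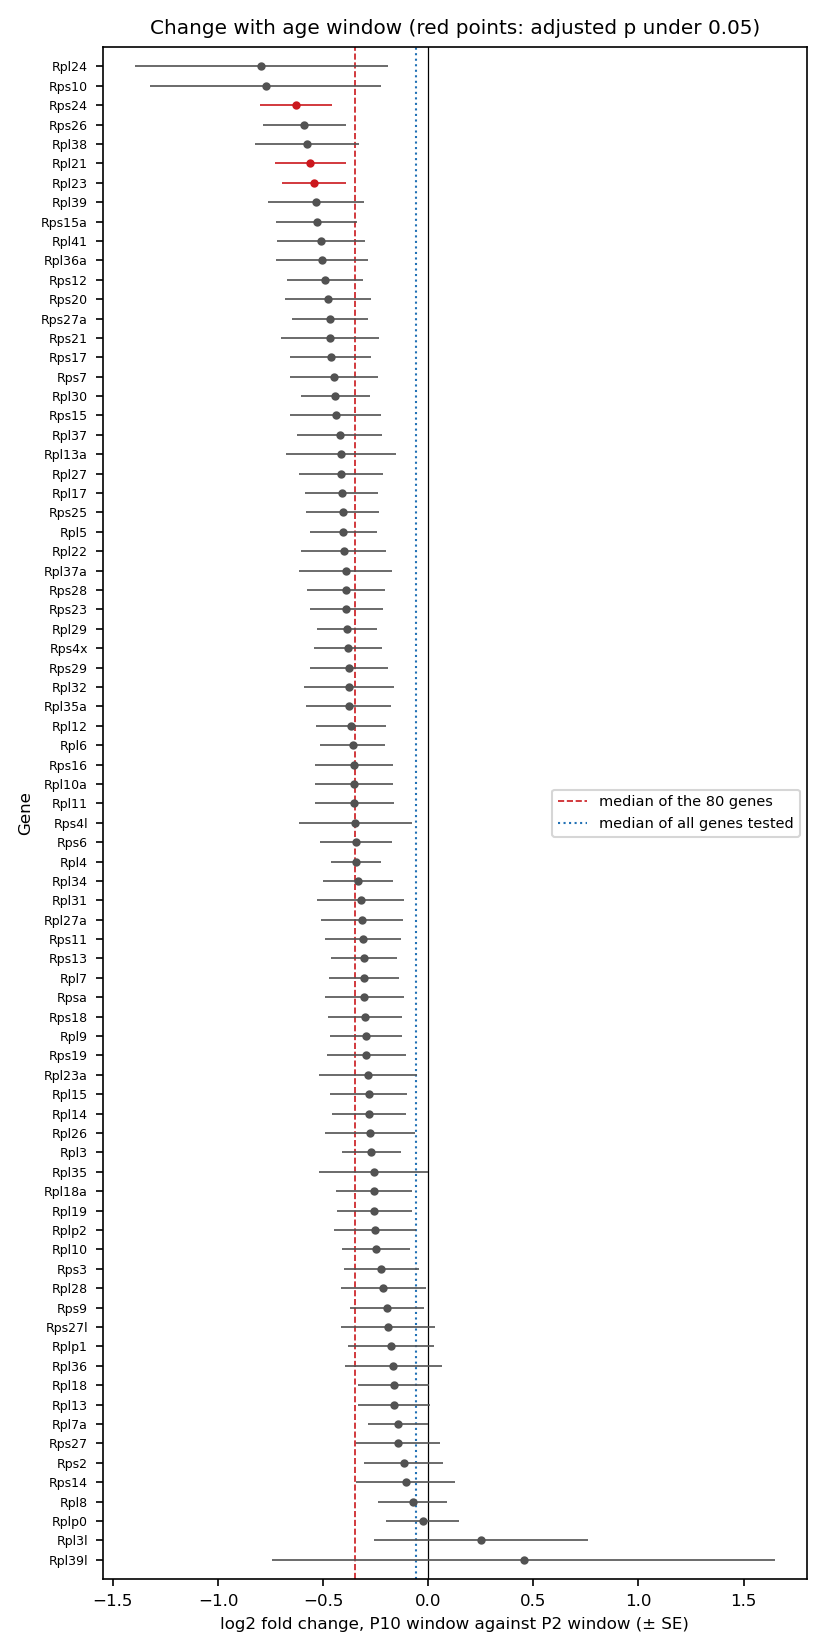
Log2 fold change of the P10 groups against the P2 groups (x axis, points ± SE) for 78 of the 80 genes tested (y axis), with the median of the 80 genes (dashed, -0.35) and of all genes tested (dotted, -0.06). Red marks the 3 genes with an adjusted p under 0.05 in edgeR, and 76 of the 78 points lie below 0.

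The direction was shared by both subunits. The median log2 fold change was -0.33 for the 48 large-subunit genes tested and -0.37 for the 32 small-subunit genes, all of which were below 0. It was -0.38 for the 40 genes with an mRNA of at most 705 bases and -0.33 for the 40 longer ones. For the 12 genes with at most 10% of their 75-base stretches elsewhere it was -0.35, and for the other 68 genes also -0.35. Without the high sham library the medians were -0.13 and -0.19 for the large and small subunits, with 41 of 48 and 29 of 32 genes below 0, -0.18 and -0.14 for the shorter and longer mRNAs, and -0.15 and -0.17 for the 12 and the 68 genes. When the short-gene share of each library was added to the model, an alternative chosen after seeing the data, 25 genes were called, or 31.3%, compared with 23.4% of all genes, and the median was -0.33.

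The age comparison was also made within each state. At baseline the median log2 fold change was -0.30 with 71 of 80 genes below 0, and 29 genes had all P10 libraries below all P2 libraries, or 36.3%, compared with 12.1% of all genes tested. Among them were Rps24, Rpl23, Rpl21, Rpl4, Rpl5, Rpl11, Rpl22, Rpl38, Rpl39, Rps4x, Rps6 and Rps27a. Rpl4, a core protein of the large subunit and the member with the most counts, was at 751, 753 and 932 CPM at P2 baseline and at 619, 548 and 586 CPM at P10 baseline. None was called in edgeR at baseline, where 4.38% of all genes were, nor in DESeq2 (background 10.2%), and 6 were at an unadjusted p under 0.05, or 7.5%, compared with 18.7% of all genes. Voom called 6 of the 80, or 7.5%, compared with 22.5% of all genes. Without replicate 3 of P2 baseline the median was -0.18. Replicates 2 and 3 of P10 baseline stood apart in their mitochondrial share, 0.253% and 0.198% compared with 0.442% to 1.07% in the other 16 libraries, and replicate 3 had the fewest counts and the fewest genes with a count, 15062. The sample titles of these replicates end in P, which no other title does, and the labels do not say what it marks. Without replicate 2 the median was -0.34 and without replicate 3 it was -0.36. Leaving out both was not run.

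After sham surgery the median was -0.67, with 79 of 80 genes below 0, and 8 genes had no overlap, or 10%, compared with 7.61% of all genes that were lower in this way. No gene was called in edgeR, where 3.18% of all genes were, though 38 were at an unadjusted p under 0.05, or 47.5%, compared with 16.3% of all genes, and DESeq2 called 6 (background 7.64%) and voom none. The size of that difference depended on single libraries. Without the high library the median was -0.18, with 68 of 80 genes still below 0. No gene was then at an unadjusted p under 0.05 in edgeR, compared with 15.8% of all genes. Without replicate 1 of P10 sham +3 days, the low library, the median was -0.48 with 77 genes below 0. In that fit 6 genes were at an unadjusted p under 0.05 in edgeR, compared with 2588 of all 17227 genes tested. Without replicate 1 of P2 sham +3 days, a fit that keeps the high library, 5 genes were called, or 6.25%, compared with 2.39% of all genes. After resection the median was 0.00, with 41 genes above and 39 below 0. None was called or at an unadjusted p under 0.05 in edgeR, where 0.86% of all genes were called, and none was called in DESeq2 (background 4.41%) or voom, where 0 and 3 were at an unadjusted p under 0.05. Of all genes 8.77%, 10.1% and 18.5% were at that level in edgeR, DESeq2 and voom. The even split depended on single libraries. Without replicate 1 of P2 resected +3 days the median was -0.16 with 71 genes below 0, without replicate 3 it was 0.16 with 71 genes above 0, and with the short-gene share in the model it was -0.15 with 73 genes below 0.

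To ask how the family responded to injury, resected and sham hearts were compared at each age. No gene of the family was called at either age, nor was any of the 16170 genes tested in edgeR (0.0%), and DESeq2 called 0.155% of all genes at P2 and 0.247% at P10 but none of the family. At P2 the median was -0.43 with 76 of 80 genes below 0, but without the high sham library it was 0.10 with 55 genes above 0. Over all libraries, 2 genes were at an unadjusted p under 0.05 in edgeR, Rps27 and Rps27l, 8 in DESeq2 and 7 in voom, with none called, compared with 4.51%, 5.21% and 13.1% of all genes. In edgeR there were 0 without the high sham library, compared with 3.03% of all genes. At P10 the median was 0.22 with 74 of 80 genes above 0, and it was 0.04 without replicate 1 of P10 sham +3 days, the low library, and 0.34 without replicate 3. In all, 10 genes had every resected library above every sham library, or 12.5%, compared with 5.63% of all genes. Among them were Rpl12, Rpl23, Rpl27a, Rpl7a, Rps12, Rps26, Rps27a and Rps28. The 10 also include Rpl3l, which had to differ, because it passed the filter on low counts only through its P10 resected libraries. Rps26 was at 126.5, 109.9 and 93.3 CPM in the resected libraries and at 43.9, 75.6 and 77.0 CPM in the sham libraries. Its log2 fold change was 0.75 ± 0.34 (SE), with an unadjusted p of 0.0429 and an adjusted p of 1 in edgeR. At P10, 2 genes were at an unadjusted p under 0.05 in edgeR, in DESeq2 and in voom alike, with none called, compared with 4.09%, 4.51% and 10.8% of all genes. These tallies run over all 80 genes, Rpl3l included, so they are not free of the filter.

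The difference between the resection effects at P10 and P2, which is also the difference between the age effects after resection and after sham surgery, had a median of 0.69, and 0.14 without the high sham library, and the mean of both effects had a median of -0.08, and 0.16 without that library. None was called in edgeR, DESeq2 or voom, with 3, 11 and 3 genes at an unadjusted p under 0.05 for the difference and 1, 1 and 3 for the mean. Of all genes these were 2.88%, 3.21% and 5.30% for the difference and 5.78%, 6.15% and 19.9% for the mean. In edgeR 0 genes of the family were at that level for the difference and 4 for the mean without the high sham library, compared with 3.04% and 5.49% of all genes. The family tallies include Rpl3l, which the filter on low counts kept only through its P10 resected libraries. DESeq2 called 0.149% of all genes for the difference and 0.422% for the mean. Sham hearts compared with baseline had a median of 0.44 at P2 and 0.11 at P10, and at P2 it was -0.04 without the high sham library. At P10 it was 0.31 without replicate 1 of P10 sham +3 days, -0.0271 without replicate 3, and -0.0355 with the short-gene share in the model. None was called in either comparison by the 3 tools, with 5, 14 and 21 genes at an unadjusted p under 0.05 at P2 in edgeR, DESeq2 and voom, and 0, 0 and 4 at P10. Of all genes these were 7.60%, 9.02% and 17.5% at P2 and 7.40%, 8.49% and 11.3% at P10, and without the high sham library edgeR had 0 genes of the family at P2, compared with 5.54% of all. In edgeR 0 and 1 of all genes were called, or 0.00618% at P10, and in DESeq2 0.928% at P2 and 0.817% at P10.

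**Figure D5:**
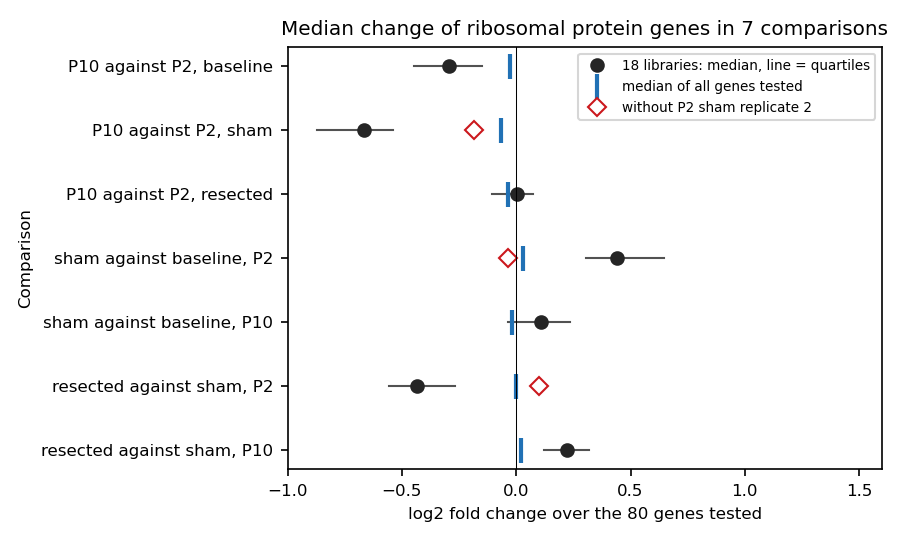
Median log2 fold change over the 80 genes tested (circles, lines are quartiles) in 7 comparisons, beside the median of all genes tested (ticks) and the median without replicate 2 of P2 sham +3 days where that library takes part (diamonds). Leaving it out moves the resection median at P2 from -0.43 to 0.10 and the sham median at P2 from 0.44 to -0.04.

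The paralogs differed among themselves. Rpl3l, the heart and skeletal muscle form of Rpl3, had 58 counts in all. At P10 resected +3 days it had 24, 11 and 9 counts, at P2 resected +3 days 0, 3 and 6, and in every other library 2 or fewer. The P10 resected libraries were thus above all others, though at most 1.19 CPM. The group thus had 44 counts, compared with 2 at P10 baseline and 0 at P10 sham +3 days. At P2 the ratio of resected libraries was 8.99 compared with the single count in sham (95% exact interval 1.25 to 394, counting error only) and 4.58 compared with the 2 counts of baseline (0.947 to 43.5), an interval that includes 1. Only the 3 P10 resected libraries reached the level of 0.512 CPM that the filter asks of 3 libraries, so the gene was tested because of them, and neither p-values nor a fold change are given for that group. The 12 cardiomyocyte markers summed to 264 to 816 CPM at P10 resected +3 days and 179 to 941 CPM at P10 sham +3 days, so these ranges overlapped, and 1 of the 12 markers was at 0 in the sham group. Their part in the Rpl3l counts was not tested.

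Rpl39l, a paralog known from testis, had counts in 12 libraries, up to 76 in replicate 3 of P10 sham +3 days, and per kilobase was at a median of 1.33% of Rpl39. Rps27l, a p53 target, was at a median of 65.9% of Rps27 per kilobase, with a range of 49.4% to 94.9%. For Rps27, 98.5% of the 75-base stretches occur in other transcripts, compared with 12% for Rps27l. Rps27 is therefore strongly undercounted, and the ratio is an upper bound rather than a measure of relative levels. Rps4l was at a median of 60.4% of Rps4x, with a range of 15.6% to 130.5%. Of the 75-base stretches of Rps4l 6.67% occur in other transcripts, and of those of Rps4x 52.9%, so Rps4x, the denominator, is counted as a lower bound. The CPM of Rps4l was 82.8, 113.4 and 36.4 at P10 resected +3 days and 39.2, 127.3 and 120.9 at P10 sham +3 days, so the replicates differed by more than the groups. In the age comparison the log2 fold changes were -0.35 ± 0.27 (SE) for Rps4l, -0.38 ± 0.16 for Rps4x, -0.19 ± 0.22 for Rps27l, -0.14 ± 0.20 for Rps27, -0.54 ± 0.23 for Rpl39 and -0.27 ± 0.14 for Rpl3. None of them passed the test. Without the high sham library Rps4l was at -0.24, Rps4x at -0.22, Rps27l at -0.0193, Rps27 at 0.11, Rpl39 at -0.25 and Rpl3 at -0.15.

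Other genes of translation were taken from lists, and are set beside 6.39% of all genes tested called lower and 7.11% called higher between the age windows. Of 66 ribosome assembly genes, 12 were called lower at P10 in edgeR and none higher, their median was -0.37 on the log2 scale, and 53 lay below 0. Among them were Taf1d, a subunit of the polymerase I factor SL1, at -1.22 ± 0.37 (SE), and Nop58 and Dkc1, which belong to small nucleolar ribonucleoproteins, at -1.13 ± 0.27 and -1.01 ± 0.19. Noc3l, a large-subunit assembly factor, was at -0.89 ± 0.28. Their adjusted p were 0.0377, 0.0077, 0.00126 and 0.0415 in edgeR.

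Of 31 elongation factors and other genes with TOP tracts, 6 were called lower and none higher, with a median of -0.20. Hnrnpa1, a splicing factor, was at 81.1 ± 17.5 CPM in the P2 groups and 37.3 ± 7.86 in the P10 groups (SD, n = 9). Its log2 fold change was -1.11 ± 0.15 (SE), with an adjusted p of 5.19e-05 in edgeR. Npm1, a nucleolar chaperone, was at -0.99 ± 0.16, Nap1l1, a histone chaperone, at -0.72 ± 0.15, and the snoRNA host Gas5 at -0.62 ± 0.17 (SE). Eef1a1, the most abundant elongation factor, was at 1448 ± 310 CPM and 1299 ± 188 CPM (SD, n = 9), with a log2 fold change of -0.16 ± 0.13 that did not pass the test.

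Of 25 other initiation factors, Eif2s1, a subunit of eIF2, was called lower and Eif1, which guards start codon choice, higher, with a median of -0.10. Of 9 ribosomal partners and paralogs, none was called in edgeR and all were below 0, with a median of -0.35, including Rps3a1 at -0.45 ± 0.17 (SE) and Rack1 at -0.23 ± 0.17. Between resected groups 6 of the 9 were above 0, with a median of 0.0355. These 9 genes took 0.181% of counts in the high sham library and 0.0549% to 0.130% in the others, and the 31 elongation factors and TOP genes took 0.918% and 0.4998% to 0.761%. The part of that library in the changes of both lists was not tested. Of 20 genes of growth control, 2 were called higher, or 10%, compared with 7.11% of all genes, and none lower. They were Sesn1, which restrains mTORC1, at 0.85 ± 0.15 (SE) and Maf1, a repressor of RNA polymerase III, at 0.73 ± 0.17. Mtor, Larp1 and Myc had -0.27 ± 0.20, -0.18 ± 0.16 and 0.13 ± 0.34 and did not pass the test. Of 77 mitochondrial ribosomal protein genes tested, a family added after results were known, 1 was called lower (Mrps22) and none higher, with a median of -0.07. Between sham groups their median was -0.25 with 65 below 0, and for resection at P2 it was -0.41 with 73 below 0. Between resected groups the median was 0.01 with 42 above 0.

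Several marker lists moved in the same comparison. Of 94 cell cycle genes, 86 were called lower at P10 and all were below 0, and their summed level was 5293 to 8171 CPM in the P2 libraries and 1913 to 3193 in the P10 libraries, without overlap. Of 12 cardiomyocyte markers 5 were called lower, with sums of 347 to 1616 CPM at P2 and 179 to 941 at P10. Of 8 fibroblast markers 3 were called higher, of 8 mural markers 3 higher and 1 lower, and of 6 erythroid markers 1 higher. None of the 12 macrophage, 9 endothelial or 6 tested epicardial markers was called. The macrophage sums were 5.29 to 447 CPM at P2 and 18.9 to 1082 at P10, the endothelial sums 175 to 463 and 256 to 482, the mural sums 409 to 1036 and 588 to 1517, the epicardial sums 1.57 to 20.9 and 0 to 55.4, and the erythroid sums 25.02 to 307 and 46.8 to 479. Every marker had counts in both windows. The part of these lists in the changes of the ribosomal protein genes was not tested.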

How the data were processed

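RNA-seq was analysed from 18 libraries of sorted GFP+ cardiac fibroblasts, 3 in each of 6 groups taken from the sample labels. The deposited counts were made by the authors, who trimmed reads with fastp 0.20.0, aligned them with STAR 2.7.0f to GRCm38.p6 with GENCODE M22 and counted exons per gene name without strand in featureCounts (Subread 1.6.4). At its defaults this tool drops reads that match several places or several genes, which lowers the counts of genes with processed copies. Without strand, overlapping genes on opposite strands cannot be told apart.

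Counts were tested in edgeR 4.0.16 (R 4.3.3), by the quasi-likelihood test with TMM scaling, 1 mean per group over all 18 libraries, a filter on low counts (filterByExpr, minimum count 10 and total 15) and Benjamini-Hochberg adjustment over the 16170 genes left. Called means an adjusted p under 0.05. Window comparisons average the 3 groups of each age. CPM uses TMM-scaled totals, and SEs were derived from the quasi-likelihood F. The steps were tested on simulated data, where an initial criterion on the share of changed genes recovered was not met. It was replaced by criteria on signs, sizes and false calls. Power is therefore limited, also for large changes. Alternatives were DESeq2 1.42.0, voom in limma 3.58.1, other scalings, no filter, a replicate block, leaving out each library, and a short-gene covariate added after seeing the data. Lengths and overlaps came from GENCODE M21, as M22 was not used here, and promoters from RefSeq.

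The genes, lists and tests were chosen with earlier results of these data known. Genes named are the P-stalk proteins and Rpsa, every gene called, the 5 highest and 3 lowest per kilobase, paralogs with their parents, 10 genes for known roles, and up to 4 called genes per list. Rps26 and genes listed for groups that did not overlap were chosen after their values were seen. A few genes are counted in totals but not reported here by name.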

Additional observations from a re-analysis of the deposited data

Results flagged for a closer look

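In 25 of 66 sets of 9 libraries the highest library was separated from the rest by more than Dixon's 95% limit for 9 values (0.493). The sets cover the 2 windows, and each pools baseline, sham and resected libraries. Chance gives about 1 in 20 for independent normal values of a single group, so that rate need not hold here. In 22 of the 25 flagged sets the highest library was replicate 2 of P2 sham +3 days. Its share of counts was 2.774%, and the next library was at 1.618%. In the large subunit its CPM was 511.5 for Rplp1, 269.5 for Rplp2, 323.7 for Rpl21, 195.0 for Rpl23, 718.8 for Rpl32, 741.6 for Rpl13, 576.5 for Rpl3, 173.8 for Rpl39, 232.8 for Rpl11, 202.4 for Rpl22, 207.3 for Rpl38, 150.8 for Rpl10a, 21.95 for Rpl13a and 530.8 for Rpl41. In the small subunit it was 295.8 for Rps24, 1175 for Rps14, 349.9 for Rps27l, 427.3 for Rps27, 416.7 for Rps4x, 632.1 for Rps19 and 291.5 for Rps27a. These genes share the library, so the values are not separate observations.

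The other 3 concern thinly counted paralogs. Rpl3l was at 0.3303 CPM in replicate 3 of P2 resected +3 days. Rpl39l was at 3.584 CPM in replicate 3 of P10 sham +3 days. Rpl6l was at 0.06355 CPM in replicate 2 of P10 resected +3 days, on 1 count. With no count in any other library, its flag was fixed in advance.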

How the results depend on the processing

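The median of the 80 genes between age windows was below 0 under all 26 alternatives, from -0.42 to -0.17. The number called there was 5 with the replicate block (6.25%, 2745 of 16170 over all genes), 4 without the filter (4.88%, all genes 9.54%), where Rpl23 was not called, 7 in DESeq2, 8 in voom (10%, all genes 28.3%) and 25 with the short-gene covariate, and 0 to 16 when each library was left out (all genes 9.73% to 17.4%). At baseline 6 were called in voom and 2 with the covariate (2.5%, 1784 of 16170 over all genes). Between sham groups 4 were called without the filter (4.88%, all genes 3.15%), 6 in DESeq2 and 1 with the covariate (1.25%, all genes 7.88%), and 0 to 5 when each library was left out (all genes 1.81% to 2.42%). Leaving out each library gave medians of -0.95 to -0.18 between sham groups, -0.69 to 0.10 for resection at P2, 0.14 to 0.93 for the difference between resection effects and -0.0367 to 0.71 for sham at P2. With the covariate the resection median at P2 was -0.0205 and that of the difference 0.29. Without the 10 most abundant genes the share was 1.12% at P10 baseline and 1.40% at P10 resected +3 days. Rplp0 was at 0.0031 under upper-quartile scaling, 0.0117 without the filter and 0.108 in voom, Rps14 at 0.062 and Rps27 at 0.0335 in voom, and Rpl39l at -0.18 with the covariate. Leaving out each library gave -0.10 to 0.10 for Rplp0, -0.28 to 0.0285 for Rplp1, -0.23 to 0.12 for Rps14, -0.66 to 1.08 for Rpl3l, -0.18 to 2.29 for Rpl39l and -0.24 to 0.11 for Rps27. The range of Rpl3l draws on the P10 resected libraries through which it passed the filter. The causes were not tested. Of 754 alternative values for single genes, 701 kept direction and side of the threshold. Over all genes, the age windows gave 2183 calls, 4569 in voom and 3776 with the covariate. For all genes DESeq2 called 1573 at baseline, 1182 between sham and 505 between resected groups, where edgeR called 709, 515 and 139, and 25 and 39 for resection at P2 and P10, where edgeR called 0.

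The labels do not say what a replicate number marks. The numbers used come from the sample descriptions, and the sample titles carry other numbers, whose pairing was not examined. Of 45 pairs of same-numbered libraries 15 had deviations correlated over 0.1, compared with 12 of 90 pairs with different numbers (medians 0.0466 and -0.0248), so some same-numbered libraries deviated together but not all, and the numbers were not taken as pairs. The block called 5 genes between windows in place of 3 and none in the other comparisons. Depth limits Rpl3l, Rpl39l, Rpl32l, Rpl6l, Rpl24 and Rps10 most.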
